A study of Mus musculus with 15 samples.

Results

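A set of 10 genes that mark the choroid plexus, *Ttr*, *Folr1*, *Kl*, *Clic6*, *Aqp1*, *Prlr*, *Sostdc1*, *Otx2*, *Slc4a5* and *Tmem72*, was followed across hippocampal libraries of young mice. The 10 genes were chosen by name and found in the count table by their Ensembl identifiers, as 10 of its 55471 rows. The choroid plexus is a sheet of secretory epithelium in the brain ventricles that makes cerebrospinal fluid by moving ions and water and that secretes carrier proteins and growth factors into it. It borders the hippocampus along the lateral ventricle, is supplied by fenestrated capillaries, and is continuous with the ciliated ependymal cells that line the ventricle wall. RNA of its epithelial cells in a hippocampal library is commonly read as a sign that ventricular tissue was carried along in the dissection. In bulk RNA a larger number of such cells and more RNA per cell cannot be told apart.

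RNA was measured by bulk sequencing of whole hippocampi of female mice aged 3 months, with 15 libraries in 5 groups of 3. Batch 1 held WT C57BL/6JInv mice, APP-TKI mice, which are homozygous for a mouse *App* gene with a humanized Aβ region and the NL-G-F knock-in mutations (App NL-G-F/NL-G-F), and DM mice, which carry the same *App* alleles together with a single human *APOE4* knock-in allele (App NL-G-F/NL-G-F with ApoE4+/wt). Batch 2 held a second WT group and ApoE4 mice (ApoE4+/wt), heterozygous for the *APOE4* knock-in on a mouse *App* background. The alleles are knock-ins at the endogenous loci, so that no promoter of a transgene drives them. The study counts the samples of a genotype as mice, and the labels number the libraries within a group without naming an animal. The p-values measure the spread between these libraries.

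Total counts ran from 32754717 to 44630808 per library, and no pair of libraries held identical counts. Levels are given in CPM, the count of a gene relative to the size of the library, which was scaled by its upper quartile. The summed level of 8 markers of hippocampal neurons lay between 656 and 824 CPM in all 15 libraries. In batch 2, 3 libraries stood apart in lists for neighbouring tissue. WT batch 2 replicate 3 held 173 CPM of 6 habenula markers, against 19.0 to 32.5 CPM in the other 14 libraries, and 322 CPM of 7 thalamus markers, against 46.5 to 117 CPM. The habenula gene *Gpr151*, an orphan receptor, was 25.1 CPM there and at most 1.17 CPM elsewhere. ApoE4 replicate 3 held 761.8 CPM of 8 striatum markers, against 68.0 to 129 CPM in the others. ApoE4 replicate 1 stood apart in the choroid plexus genes themselves, together with WT batch 2 replicate 3. Endothelial markers summed to 65.1 to 108 CPM in batch 1 and 117 to 169 CPM in batch 2. Over all libraries, mural markers summed to 64.2 to 134 CPM and blood markers to 17.8 to 41.4 CPM. Pituitary markers summed to 7.90, 13.4 and 23.0 CPM in the WT libraries of batch 2. They summed to 1.01 to 3.02 CPM in ApoE4 libraries and 0.845 to 3.02 CPM in batch 1. The part of any of these tissues in the comparisons was not tested.

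The 10 genes were far higher in 2 libraries of batch 2, 1 in each of its groups, than in the other 13 libraries. ApoE4 replicate 1 and WT batch 2 replicate 3 were the highest pair of the 15 libraries for each of the 10 genes. The summed level of the 10 genes was 2008 CPM in ApoE4 replicate 1 and 1687 CPM in WT batch 2 replicate 3, and between 30.6 and 110.9 CPM in the other 13 libraries. 

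*Ttr* encodes transthyretin, the carrier of thyroxine and of retinol-binding protein that the choroid plexus epithelium secretes into cerebrospinal fluid, and it was the most abundant of the 10 genes per base of exon in every library. Its level was 4.46, 30.2 and 8.22 CPM in the WT libraries of batch 1, 41.6, 9.91 and 22.6 CPM in APP-TKI libraries and 15.2, 28.6 and 7.85 CPM in DM libraries. In batch 2 it was 70.3, 25.6 and 1443 CPM in WT libraries and 1745, 47.2 and 36.3 CPM in ApoE4 libraries. The counts behind these levels were 153 in the lowest library, 2635 in the third highest, 55478 in WT batch 2 replicate 3 and 78067 in ApoE4 replicate 1. The second highest library thus stood 20.5-fold above the third, and the 3 groups of batch 1 overlapped. Even within WT batch 1 the highest library held 6.76 times the *Ttr* level of the lowest. Corrected for exon length, *Ttr* reached 1471 RPKM (CPM per kilobase of exon) in ApoE4 replicate 1, where the next gene, *Clic6*, stood at 12.6 RPKM.

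**Figure D1:**
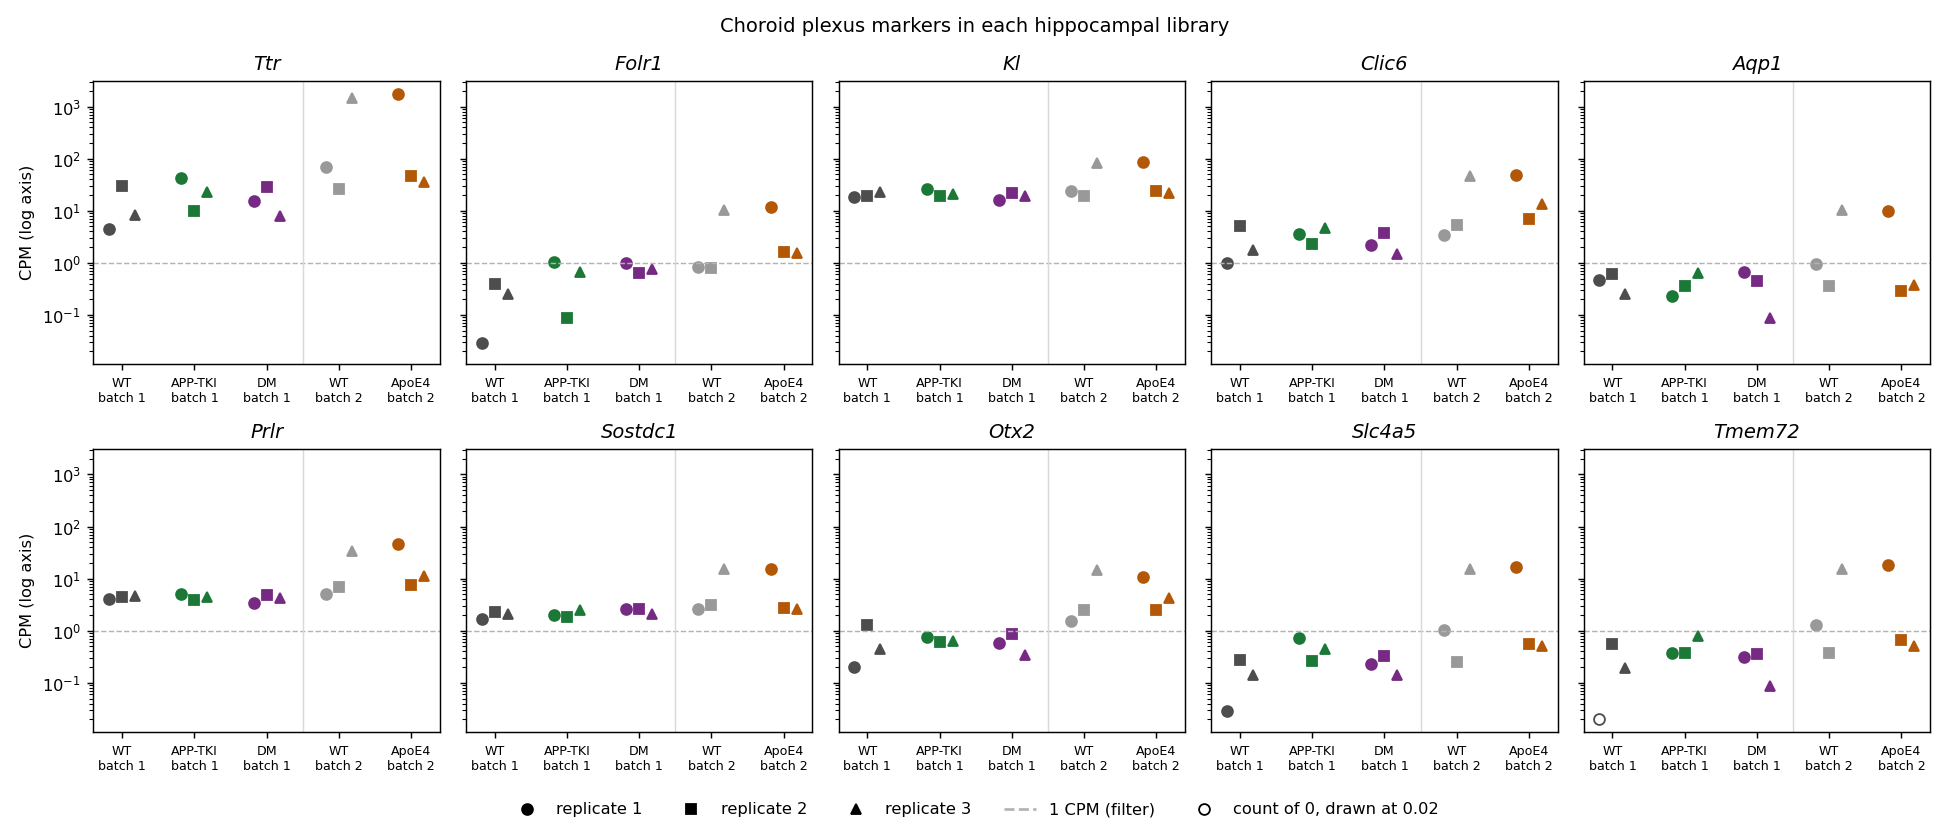
CPM (log axis) of each of the 10 choroid plexus markers in the 15 libraries, 1 point per library, with the 5 groups along the horizontal axis and batch 1 left of the grey vertical line. The dashed line marks 1 CPM, and an open circle marks a count of 0, drawn at the lower end of the axis. In each panel WT batch 2 replicate 3 and ApoE4 replicate 1 lie above the other 13 libraries, from 25.6 to 82.0 CPM for *Kl* and from 70.3 to 1443 CPM for *Ttr* at the gap.

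The genes of ion, water and bicarbonate transport behaved in the same way at lower CPM. *Slc4a5* (chr6:83219828-83304945, GRCm38), an electrogenic sodium bicarbonate cotransporter of the epithelium, had 756 counts in ApoE4 replicate 1 and 590 in WT batch 2 replicate 3, and between 1 and 39 counts elsewhere. Its level was 0.029, 0.28 and 0.14 CPM in WT, 0.73, 0.26 and 0.44 CPM in APP-TKI and 0.23, 0.33 and 0.14 CPM in DM libraries of batch 1. In batch 2 it was 1.04, 0.25 and 15.3 CPM in WT and 16.9, 0.55 and 0.51 CPM in ApoE4 libraries. The APP-TKI libraries overlapped the WT libraries of their batch only through APP-TKI replicate 2.

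*Aqp1* (chr6:55336432-55348555), the water channel of the apical membrane, was above 1 CPM in those 2 libraries alone, at 10.5 CPM in WT batch 2 replicate 3 and 9.72 CPM in ApoE4 replicate 1. In the other 13 libraries it lay between 0.086 and 0.93 CPM, so that it did not pass the filter of 1 CPM in 3 libraries and was not tested. *Clic6* (chr16:92485736-92541243), a chloride intracellular channel protein, was at 45.8 CPM in WT batch 2 replicate 3 and 49.2 CPM in ApoE4 replicate 1. The other WT libraries of batch 2 had 3.49 and 5.44 CPM of it, and the other ApoE4 libraries 7.06 and 13.2 CPM. Batch 1 libraries held 0.99, 5.06 and 1.77 CPM (WT), 3.55, 2.32 and 4.61 CPM (APP-TKI) and 2.18, 3.80 and 1.46 CPM (DM), with the groups overlapping.

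Receptors and secreted factors divided by how much of them the hippocampus held outside the 2 highest libraries. *Folr1* (chr7:101858331-101870788), the folate receptor through which the epithelium passes folate into cerebrospinal fluid, was close to the limit of detection in batch 1, with 1, 13 and 9 counts in WT, 35, 3 and 24 in APP-TKI and 38, 23 and 27 in DM libraries. In CPM these were 0.029, 0.40 and 0.25 for WT, 1.03, 0.088 and 0.67 for APP-TKI and 0.98, 0.64 and 0.77 for DM libraries. The DM libraries lay wholly above the WT libraries of batch 1, and the APP-TKI libraries overlapped both groups. In batch 2 *Folr1* was 0.83, 0.81 and 10.5 CPM in WT and 11.6, 1.64 and 1.58 CPM in ApoE4 libraries.

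*Prlr* (chr15:10177238-10349180), the prolactin receptor, kept a level of 3.34 to 5.13 CPM in all 9 libraries of batch 1. It was 5.07, 6.94 and 34.1 CPM in WT and 46.5, 7.60 and 11.1 CPM in ApoE4 libraries of batch 2. Its ligand *Prl*, a hormone of the pituitary, was at 11.8 CPM in WT batch 2 replicate 3 and at 0.13 CPM in ApoE4 replicate 1, so that the 2 libraries with the most receptor RNA differed in that of the ligand. *Prl* had 162, 273 and 452 counts in the WT libraries of batch 2 and 6, 52 and 16 counts in the ApoE4 libraries. *Kl* (chr5:150952607-150993817), which encodes klotho, a coreceptor for fibroblast growth factor 23 that neurons also make, had the flattest profile. It lay between 16.1 and 25.6 CPM in 13 libraries and reached 82.0 CPM in WT batch 2 replicate 3 and 85.3 CPM in ApoE4 replicate 1, which in the latter was 3.95-fold above the median of all 15 libraries.

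*Sostdc1* (chr12:36314139-36318452), a secreted antagonist of BMP and Wnt signalling, was 1.69 to 3.07 CPM in 13 libraries and 15.4 and 15.2 CPM in WT batch 2 replicate 3 and ApoE4 replicate 1. *Tmem72* (chr6:116679063-116716913), a transmembrane protein, had a count of 0 in WT batch 1 replicate 1, where 3 counts would be 0.0874 CPM. It had at most 48 counts in the other 13 libraries and 590 and 807 counts in the 2 highest, which is 15.3 and 18.04 CPM.

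*Otx2* (chr14:48657677-48673819) encodes the homeodomain factor that choroid plexus development depends on. It was 0.20, 1.26 and 0.44 CPM in WT, 0.76, 0.62 and 0.64 CPM in APP-TKI and 0.57, 0.86 and 0.34 CPM in DM libraries of batch 1. In batch 2 it was 1.55, 2.52 and 14.8 CPM in WT and 10.95, 2.499 and 4.18 CPM in ApoE4 libraries, so that each library of batch 2 lay above each of batch 1. *Otx2* shares 154 exonic bases with the antisense gene *Otx2os1* and 168 with *Gm49154* on its own strand, and *Prlr* shares 203 with *Gm21973*, so that reads of those stretches cannot be assigned with certainty. The other 8 genes share no exonic bases with an annotated gene.

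The letters TAATCC, the core of the DNA motif of OTX2, were looked for on both strands in RefSeq promoter windows of GRCm38.p6, which hold 250 bases before and 50 after a gene's start. Of the 10 genes, 6 had an entry, with 11 windows in all, and 1 window, at a start of *Otx2* itself, held the letters. Of all 32851 windows, 6.25% held them. The 30 bases around the match, chr14:48665303-48665332 on the minus strand, are shown because *Otx2* was the member with the letters, which stand in capitals (TAATCC read on the other strand) and begin 211 bases before that start. In the GENCODE annotation these bases lie in an untranslated exon of another *Otx2* transcript. A match of letters is a description and does not show binding.
Otx2: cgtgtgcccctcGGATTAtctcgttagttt

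The excess of the 10 genes in the 2 highest libraries differed widely between genes and little between the libraries. Over the median of the 15 libraries, ApoE4 replicate 1 was 61.1-fold higher for *Ttr*, 50.8-fold for *Slc4a5* and 47.3-fold for *Tmem72*, and WT batch 2 replicate 3 was 50.5-fold, 46.2-fold and 40.3-fold higher. *Aqp1*, *Folr1*, *Clic6* and *Otx2* stood between 12.1-fold and 23.7-fold above their medians. *Prlr*, *Sostdc1* and *Kl*, which had more counts in the other libraries than *Slc4a5* and *Tmem72*, stood between 3.80-fold and 9.69-fold above theirs. The ratio of ApoE4 replicate 1 to WT batch 2 replicate 3 had a median of 1.09 over the 10 genes and ran from 0.738 for *Otx2* to 1.36 for *Prlr*. For each gene the difference between the 2 libraries was thus small beside their distance from the median.

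Many other genes of the choroid plexus were highest in the same 2 libraries, by widely differing amounts. Of 41 further choroid plexus genes in 3 lists, the same pair was the highest for 12 of 14 genes of ion, water and solute transport, 17 of 17 secreted and surface proteins and 9 of 10 genes of epithelial structure and transcription factors. *Kcne2*, a potassium channel subunit, was 46.1-fold and 39.0-fold above its median in ApoE4 replicate 1 and WT batch 2 replicate 3. *Mfrp*, a frizzled-related membrane protein, was 43.6-fold and 40.2-fold above it, and *Enpp2*, the lysophospholipase autotaxin, 6.27-fold and 5.45-fold. Among the 30 of these genes that passed the filter, the pair was the highest for 27, and it was so for 4.46% of all genes that passed. In ApoE4 replicate 1, 20 of the 41 genes were more than 4-fold above their median, and *Car12*, a carbonic anhydrase, and *Spint2*, a protease inhibitor, were 1.29-fold and 1.35-fold above it. The share of all genes above that fold was not counted. Some of the 41 genes lie under the filter, among them *Kcne2* and *Mfrp* with medians of 0.33 and 0.31 CPM. A fold over so low a median is loosely set. The exceptions to the rank were *Slc29a4*, *Fxyd1* and *Gmnc*, which were at most 1.31-fold above their medians in the 2 libraries.

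**Figure D2:**
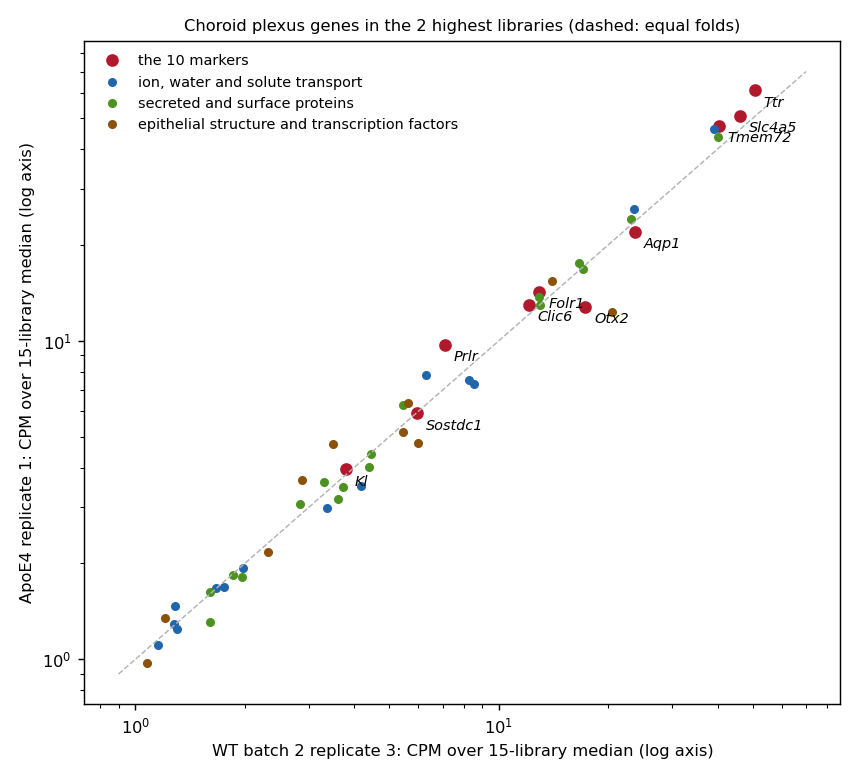
Level in ApoE4 replicate 1 against level in WT batch 2 replicate 3, each as CPM over the 15-library median on log axes, for the 10 markers (red, named) and 41 other choroid plexus genes. Points follow the dashed line of equal folds from *Gmnc* at 0.973 and 1.08 to *Ttr* at 61.1 and 50.5.

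The shares of the 10 genes in their summed counts changed with the size of the sum. *Ttr* gave 86.9% of the counts of the 10 genes in ApoE4 replicate 1 and 85.5% in WT batch 2 replicate 3, and between 14.6% and 63.4% in the other libraries. The share of *Kl* was the reverse, from 61.0% of the counts in WT batch 1 replicate 1, where *Ttr* was lowest, to 4.25% in ApoE4 replicate 1. Shares of a sum are bound to each other, so that a larger share of *Ttr* leaves less for *Kl*. The level of *Kl* itself lay between 16.1 and 25.6 CPM in the 13 other libraries, where *Ttr* ran from 4.46 to 70.3 CPM. In WT batch 1 replicate 1 the 10 genes held 26.1 CPM without *Ttr*, most of it *Kl* and *Prlr*.

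**Figure D3:**
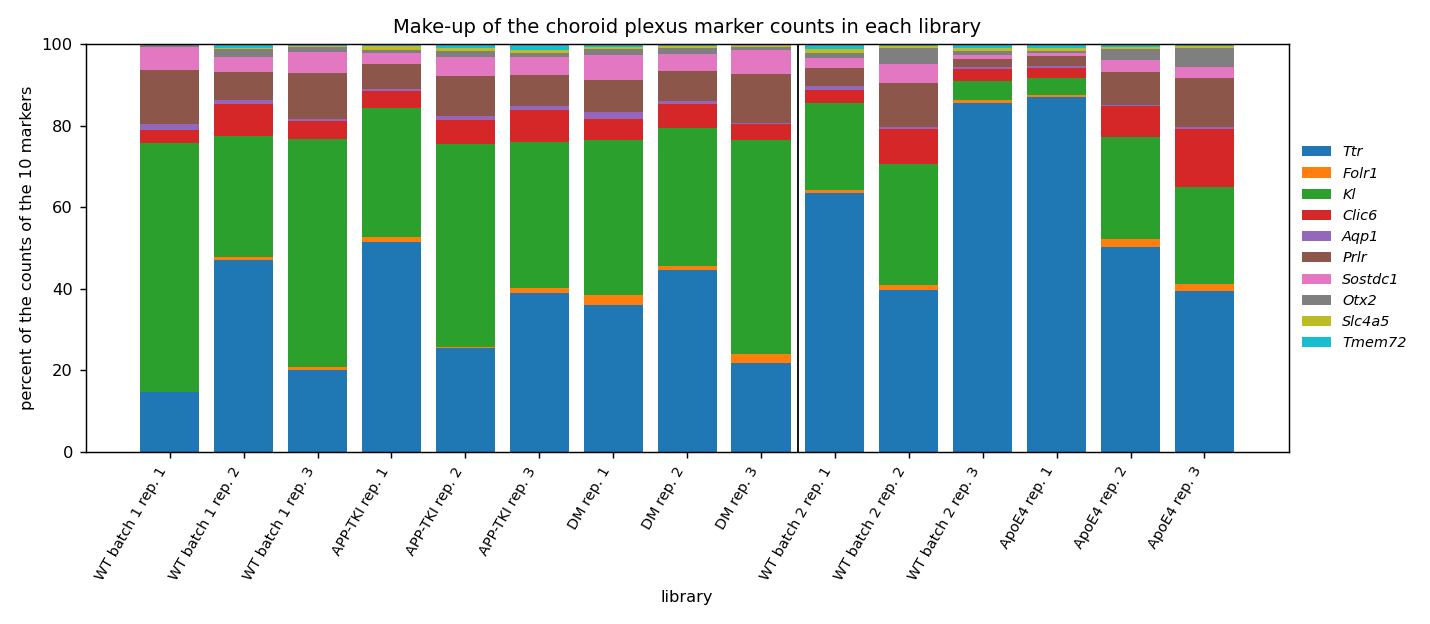
Stacked bars of the share (percent) of each of the 10 genes in their summed counts, for the 15 libraries. *Ttr* takes 85.5% and 86.9% in WT batch 2 replicate 3 and ApoE4 replicate 1 and at most 63.4% elsewhere, and *Kl* takes the most in WT batch 1 replicate 1, at 61.0%.

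ApoE4 replicate 3 showed a different combination of ventricular genes. For *Clic6*, *Prlr* and *Otx2* it ranked the third of the 15, at 3.48-fold, 2.31-fold and 4.86-fold over their medians, whereas *Ttr* was 1.27-fold and *Sostdc1* 1.00-fold. The same library held 181 CPM of 17 markers of ependymal cells and motile cilia, the highest sum of the 15 libraries, against 24.7 to 129 CPM in the others, beside its striatum markers. *Foxj1*, the regulator of motile cilia, was 29.4 CPM there, 20.8 CPM in WT batch 2 replicate 3 and 18.3 CPM in ApoE4 replicate 1, and 3.55 to 15.3 CPM in the other 12 libraries. The rank of ependymal genes among the libraries thus differed from that of *Ttr*.

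Across libraries, log2 CPM of the 9 genes that passed the filter varied together, a relation that rests partly on the 2 highest libraries. Pearson's r with the mean of the 9 genes, centred within each batch, was 0.856 to 0.980 over 15 libraries. The mean includes the gene itself. Without the 2 highest libraries, over 13, r was 0.911 for *Ttr*, 0.898 for *Slc4a5*, 0.882 for *Tmem72*, 0.832 for *Clic6*, 0.817 for *Otx2* and 0.784 for *Folr1*. It was 0.592 for *Sostdc1*, 0.398 for *Kl* and 0.290 for *Prlr*. Between pairs of genes over the 13 libraries, r was 0.938 for *Clic6* and *Otx2* and 0.908 for *Ttr* and *Slc4a5*, and the median over the partners of a gene was 0.638 for *Ttr*, 0.536 for *Folr1*, 0.514 for *Otx2* and 0.463 for *Sostdc1*. *Prlr* had a median of 0.0918 but r of 0.618 with *Clic6* and 0.501 with *Otx2*, and *Kl* and *Prlr* reached 0.902 within batch 1. Each point is 1 library, in which all genes share the depth.

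The 8 genes outside the 10 with the pattern most like that mean, of 16162 ranked by r over the 15 libraries, were *F5* (0.978), *Enpp2* (0.954), *Acaa2* (0.948), *Asb16* (0.943), *Ace* (0.935), *Cab39l* (0.929), *Trpv4* (0.929) and *6330409D20Rik* (0.928). Of these 8, 5 stand in the choroid plexus lists. *F5*, coagulation factor V, was 0.55 to 3.49 CPM in 13 libraries and 39.3 and 40.8 CPM in WT batch 2 replicate 3 and ApoE4 replicate 1. The mitochondrial thiolase *Acaa2*, which is in no list, varied far less, between 15.6 and 24.3 CPM. Without the 2 highest libraries r was 0.894 for *F5* and 0.751 for *Acaa2*. Among the 50 most alike genes, 15 were of the 30 other choroid plexus genes tested.

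**Figure D4:**
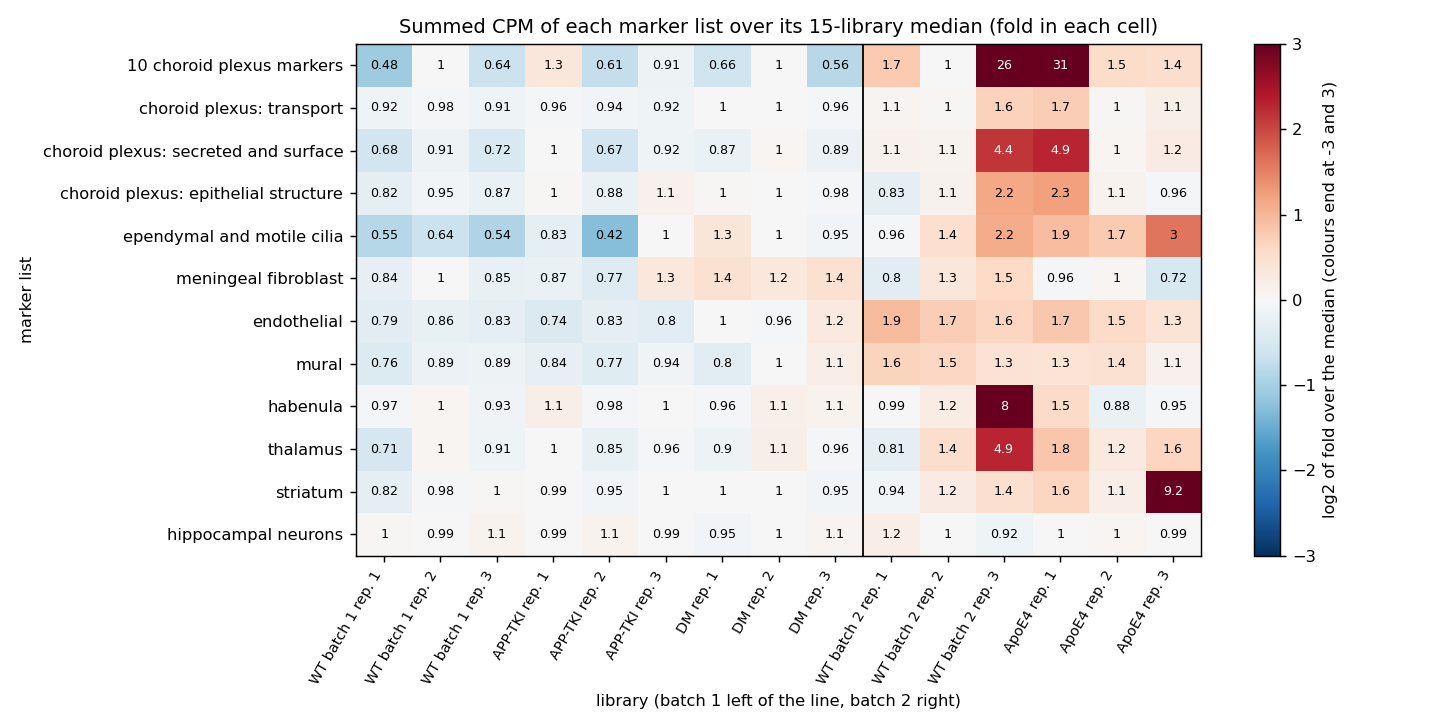
Summed CPM of 12 marker lists (rows) in the 15 libraries (columns), as the fold over the 15-library median of that list, which is printed in each cell and coloured on a log2 scale that ends at -3 and 3. The 10 choroid plexus markers are at 26 and 31 in WT batch 2 replicate 3 and ApoE4 replicate 1, habenula and thalamus markers are highest in WT batch 2 replicate 3, striatum and ependymal markers in ApoE4 replicate 3, and hippocampal neuron markers lie near 1 throughout.

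The first comparisons asked whether mutant *App*, alone or with *APOE4*, changed the 10 genes in batch 1, which held neither of the 2 highest libraries. In DM against WT libraries no member was called: 0 of the 9 tested genes passed an adjusted p of 0.1 with edgeR's quasi-likelihood test, against 0.0124% of all 16171 genes, and 0 passed with DESeq2 and with edgeR's robust likelihood ratio test. *Ttr* had a log2 fold change of 0.28 (SE 0.66, 95% interval -1.16 to 1.72), with 17.2 ± 10.5 CPM in DM and 14.3 ± 13.9 CPM in WT libraries (SD, n = 3). *Kl*, the gene with the smallest error, had -0.10 (SE 0.13, 95% interval -0.39 to 0.19). Of the 9 genes, *Folr1*, *Otx2*, *Slc4a5* and *Tmem72* passed the filter only through batch 2, here and in the other comparisons of batch 1. The median over the 9 genes, which is the value of *Tmem72*, was 0.055, and over all genes 0.012. The former was -0.21 without DM replicate 2 and 0.86 without WT batch 1 replicate 2.

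*Folr1* was the single member at an unadjusted p under 0.05 in that comparison, where 4.55% of all genes were. Its log2 fold change was 1.82 (SE 0.71, 95% interval 0.26 to 3.38, adjusted p = 0.964 with edgeR). It was also the single member whose 3 DM libraries lay wholly above the 3 WT libraries, as 7.29% of all genes did. The values behind it are the 1 to 38 counts per library given above. With no filter on low counts its adjusted p in edgeR was 0.0162, in a fit that called 171 genes. A block for the replicate number raised the genes called from 2 to 11, with no member among them.

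Of the 30 other choroid plexus genes tested, 27 had a positive log2 fold change in DM against WT libraries, as 8878 of the 16171 genes did. With the quasi-likelihood test of edgeR, 11 were at an unadjusted p under 0.05, where 4.55% of all genes were. None passed the adjusted threshold with that test, against 0.0124% of all genes. DESeq2 called 2 and the robust likelihood ratio test 4, and the numbers of all genes that they called are given in the last section. *Lbp*, the lipopolysaccharide-binding protein, was 3.76 CPM in DM and 1.21 CPM in WT libraries on average (log2 fold change 1.65, SE 0.29, adjusted p = 0.146 with edgeR). *Slc13a4*, a sulfate transporter, was 6.08 and 2.42 CPM (1.33, SE 0.29, adjusted p = 0.384 with edgeR). *Rbp4*, the plasma carrier of retinol that travels bound to transthyretin, was 8.56 and 8.54 CPM. Other genes named from the 3 lists by p were the channel *Trpv4* (0.74), the FXYD regulator *Fxyd1* (0.25), angiotensin-converting enzyme *Ace* (0.43), keratin *Krt8* (1.63) and the claudins *Cldn1* (0.55) and *Cldn2* (0.82), each with a positive log2 fold change that did not pass. These genes differed in likeness to the mean of the tested members. Of 16162 genes ranked by r, *Ace* was 5, *Trpv4* 7, *Cldn1* 38, *Cldn2* 56, *Slc13a4* 100, *Krt8* 107, *Lbp* 470 and *Fxyd1* 1559. *Lbp* was 11.6 CPM in ApoE4 replicate 3, beside 14.6 CPM in ApoE4 replicate 1 and 14.7 CPM in WT batch 2 replicate 3.

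Sums of markers of other cells also differed between the DM and WT libraries, and their part in the comparison was not tested. The summed level of the ependymal list was 76.2, 59.5 and 56.3 CPM in DM and 33.01, 37.9 and 31.9 CPM in WT libraries, and that of 11 meningeal and perivascular fibroblast markers 126, 113 and 125 against 76.5, 91.0 and 77.7 CPM. The sum of 11 endothelial markers was 88.2, 84.5 and 108.2 against 70.1, 75.5 and 73.1 CPM. In none of the 3 lists did the DM and WT sums overlap. Of the tested genes, 16 of 16 ependymal, 11 of 11 fibroblast and 10 of 11 endothelial genes had a positive log2 fold change, with medians of 0.95, 0.67 and 0.31, and none passed the adjusted threshold with edgeR. *Mia*, a gene of the ependymal list, was near 0 in each library, at no more than 0.088 CPM. The sums of the 10 genes, at 42.2, 64.0 and 36.0 CPM in DM and 30.6, 64.1 and 40.8 CPM in WT libraries, did overlap. So did those of the choroid plexus lists of transport genes and of secreted and surface proteins. Those of the list of epithelial structure and transcription factors did not, at 25.002 to 26.26 CPM in DM and 20.98 to 24.17 CPM in WT libraries. Pituitary sums did not overlap either, at 1.68 to 3.02 CPM in DM and 0.845 to 1.42 CPM in WT libraries. How often sums of unrelated genes separate in this way was not tested.

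In APP-TKI against WT libraries, all 9 tested members had a positive log2 fold change, as 8974 of the 16171 genes did. The members vary together across libraries, so that their signs are not independent. Their median was 0.43 against 0.013 for all genes, and 0 of 9 passed the adjusted threshold with the quasi-likelihood test of edgeR, DESeq2 or the robust likelihood ratio test. The share of all genes called was 0.00618%. One member, *Slc4a5*, was at an unadjusted p under 0.05, where 3.56% of all genes were (log2 fold change 1.69, SE 0.62, adjusted p = 0.9998 with edgeR). It had 25, 9 and 16 counts in APP-TKI and 1, 9 and 5 counts in WT libraries. The median was 0.064 without WT batch 1 replicate 1 and 1.33 without WT batch 1 replicate 2. The fold change of *Ttr* was 0.80 (SE 0.65, 95% interval -0.63 to 2.23), with 0.20 when APP-TKI replicate 1 and 1.96 when WT batch 1 replicate 2 was left out, and that of *Folr1* 1.39 (SE 0.74).

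In DM against APP-TKI libraries, which carry the same *App* alleles and differ in *APOE4*, 7 of 9 members had a negative log2 fold change, with a median of -0.22. Of all 16171 genes, 8024 had a negative one. None was called, as was 0% of all genes, and none was at an unadjusted p under 0.05 with edgeR, where 3.78% of all genes were. DESeq2 and the robust likelihood ratio test called 18 and 53 genes and no member. *Slc4a5* had -1.01 (SE 0.56, adjusted p = 0.987 with edgeR) and *Ttr* -0.52 (SE 0.64, 95% interval -1.93 to 0.89). *Tmem72* had -1.03 (SE 0.73), and its DM libraries lay wholly below the APP-TKI libraries, as those of 2.9% of all genes did. The intervals of *Kl* (-0.51 to 0.066) and *Prlr* (-0.47 to 0.26) leave less room than those of the rarer genes.

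ApoE4 against WT libraries of batch 2 each held 1 of the 2 highest libraries. None of the 9 members was called by the quasi-likelihood test of edgeR, DESeq2 or the robust likelihood ratio test, and none was at an unadjusted p under 0.05. Of all genes, 0% were called and 5.99% were at an unadjusted p under 0.05 with edgeR, and DESeq2 and the robust likelihood ratio test called 48 and 125. The log2 fold change of *Ttr* was 0.25 with a standard error of 1.74 and a 95% interval of -3.82 to 4.32. The median of the 9 members was 0.18.

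The direction in batch 2 depended on which of the 2 libraries was kept. Without WT batch 2 replicate 3 the median of the members was 2.38, and without ApoE4 replicate 1 it was -1.33. With both left out, which leaves 2 libraries a group, *Ttr* had -0.20, *Slc4a5* -0.28 and *Tmem72* -0.51. *Folr1* (0.97), *Clic6* (1.18) and *Prlr* (0.64) were then at an unadjusted p under 0.05, where 5.5% of all genes were, each at an adjusted p of 0.843 in edgeR's quasi-likelihood test. Both remaining ApoE4 libraries lay above both WT libraries for these 3 genes, as for 17.2% of all genes. One of the 2 was ApoE4 replicate 3, the library with the highest striatum and ependymal sums, which ranked the third for *Clic6* and *Prlr*. That choice of libraries was made after seeing the data.

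The difference between the effect of *APOE4* with mutant *App* (DM minus APP-TKI) and without it (ApoE4 minus WT) was tested in all 15 libraries. None of the 9 members passed with edgeR, DESeq2 or the robust likelihood ratio test, or was at an unadjusted p under 0.05 with edgeR. DESeq2 gave no adjusted p for *Ttr* and *Folr1* between the WT groups, a contrast of the same 15 libraries. A missing value counts as not passed, so that the DESeq2 result says nothing on a gene without one. Of all genes, 0% were called and 6.85% were at an unadjusted p under 0.05 with edgeR, and DESeq2 and the robust likelihood ratio test called 26 and 121. The difference was -0.77 on the log2 scale for *Ttr*, with a 95% interval of -5.00 to 3.46, and the median of the members was -0.61. It was -2.16 without WT batch 2 replicate 3 and 1.60 without ApoE4 replicate 1. Without both, *Clic6* (-1.68) and *Prlr* (-0.74) were at an unadjusted p under 0.05, where 6.38% of all genes were, each with an adjusted p of 0.782 in edgeR.

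**Figure D5:**
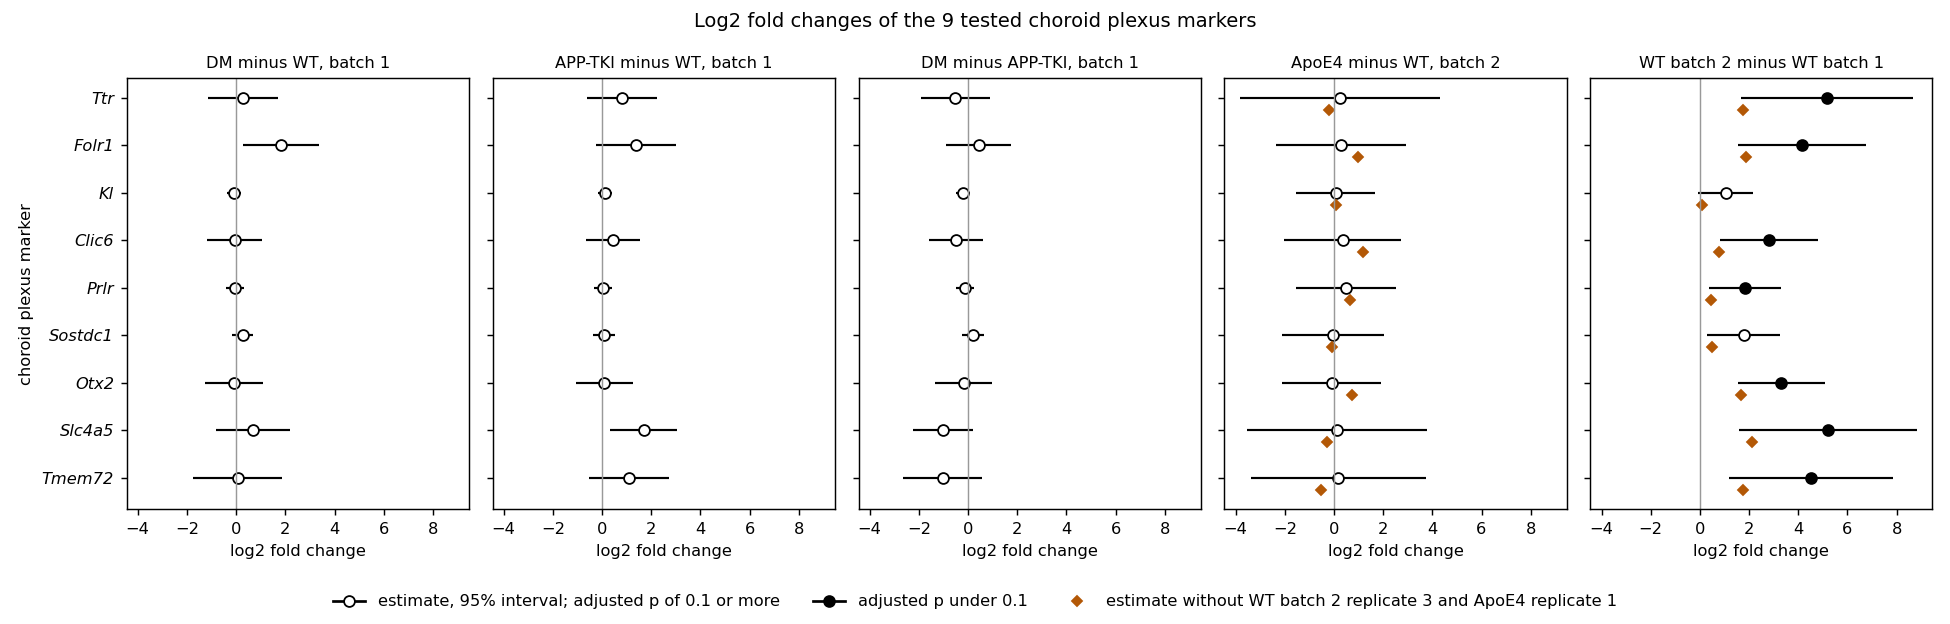
Log2 fold change (horizontal axis) of the 9 tested markers in 5 comparisons, with 95% intervals, filled where the adjusted p was under 0.1. Diamonds give the estimate without WT batch 2 replicate 3 and ApoE4 replicate 1, in the 2 comparisons that hold them. In the ApoE4 panel the interval of *Ttr* runs from -3.82 to 4.32, and in the panel of the WT groups its estimate moves from 5.18 to 1.76.

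The 2 WT groups have the same genotype and differ in batch, which by the study's methods means both collection and sequencing. All 9 tested members had a positive log2 fold change, as 7461 of the 16171 genes did. The filter bears on this comparison: *Folr1*, *Otx2*, *Slc4a5* and *Tmem72* were over 1 CPM in at most 1 library of batch 1 and were tested only through batch 2, where they were high, so that their calls carry no weight here. Of the 5 members that passed the filter in each batch alone, 3 rose at the adjusted threshold with edgeR's quasi-likelihood test (*Ttr*, *Clic6* and *Prlr*), where 15.5% of the genes that passed in this way were called in either direction. That restriction was chosen after seeing the data.

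Without it, 7 of 9 members were called, beside 17.8% of all genes, and 4 of the 7 were the genes tested only through batch 2. At an unadjusted p under 0.05 were 8 members, beside 26.2% of all genes. DESeq2 called 6 members, *Sostdc1* among them, and gave no adjusted p for *Ttr* and *Folr1*, and edgeR's robust likelihood ratio test called 6, without *Prlr*. The 3 libraries of batch 2 lay wholly above those of batch 1 for *Folr1*, *Prlr*, *Sostdc1* and *Otx2*, and for 13.2% of all genes.

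The log2 fold change was 5.18 for *Ttr* (SE 1.64, adjusted p = 0.0506 with edgeR) and 2.98 under the robust likelihood ratio test. It was 2.82 for *Clic6* (SE 0.93, adjusted p = 0.0622 with edgeR) and 1.83 for *Prlr* (SE 0.68, adjusted p = 0.0974 with edgeR). *Kl* (1.04, SE 0.52, adjusted p = 0.217 with edgeR) and *Sostdc1* (1.78, SE 0.69, adjusted p = 0.111) did not pass. The calls changed with single libraries of both groups, and those over all genes changed too, from 1779 to 3121 of 16171 with 1 library left out. Without WT batch 2 replicate 3, 0 of 9 members were called, beside 1779 of all genes in place of 2878. The median of the members was then 1.69 in place of 3.32. Without WT batch 1 replicate 1 or replicate 3, *Otx2* was the 1 member called. Without WT batch 1 replicate 2 there were 4, *Ttr*, *Clic6*, *Folr1* and *Otx2*. A block for the replicate number within each batch also left *Otx2* alone. That fit called at least 2054 genes in all, a bound taken from the setting with an adjusted p under 0.05. With the block, the WT groups are compared at the fitted level of replicate 1 of each batch. It is thus not the same comparison as the one without the block. *Otx2* and *Folr1* were tested only through batch 2, so that their calls carry no weight in these fits either.

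In a further fit, WT batch 2 replicate 3 and ApoE4 replicate 1 were both left out. None of the 5 members that passed the filter in each batch alone was called. The 1 call was *Otx2* (log2 fold change 1.69, adjusted p = 0.0675 with edgeR), which was tested only through batch 2, so that it carries no weight. The number of all genes called in that fit is given in the last section. *Ttr* was then 1.76 (adjusted p = 0.175) and *Slc4a5* 2.11 (adjusted p = 0.101), and all 9 members kept a positive sign, down to 0.087 for *Kl*. The sums of the ependymal list in the WT libraries were 57.1, 84.8 and 129 CPM in batch 2, against 33.01, 37.9 and 31.9 CPM in batch 1. Batch cannot be told apart from anything else that differed between the 2 collections.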

How the data were processed

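The authors deposited 1 table of unnormalized read counts by gene and library. They trimmed reads with Trimmomatic 0.39, aligned them with STAR 2.7.1a to the GENCODE mouse genome with human *APOE* added, and counted them with HTSeq 0.11.2. No source used here gives the strand setting. The authors filtered, scaled and tested the counts in R 4.0.2 with edgeR, steps that are not in the deposited counts.

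Here, 16171 genes with over 1 CPM in at least 3 of 15 libraries were kept, 9 of the 10 members among them. They were scaled by the upper quartile and tested with the quasi-likelihood test of edgeR 4.0.16 (R 4.3.3), in fits of the 9 libraries of batch 1, the 6 of batch 2, and all 15 for the difference of differences and the WT groups. A gene was called at an adjusted p (Benjamini-Hochberg, across the genes tested) below 0.1. A gene without an adjusted p counted as not called. DESeq2 1.42.0 and edgeR's robust likelihood ratio test were alternatives, beside other scalings, filters, library sets, a replicate block and each library left out. RPKM used exon lengths of GENCODE M21. For correlations, log2 CPM (prior count 1) had its batch mean taken off. Figures were drawn with matplotlib 3.10.9.

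Members and lists were chosen with earlier results of these data known. The genes named are the 10 members, the 3 genes of each other choroid plexus list with the smallest p in DM against WT (1 of them is not reported here), the most abundant markers of other lists, the 8 genes most alike and any member with the promoter letters. *Kcne2*, *Mfrp*, *Slc29a4*, *Gmnc*, *Car12*, *Spint2* and *Mia* were named after their values were seen. Same-numbered DM and WT libraries deviated together from their group means (r of 0.446, 0.194 and 0.300, all over 0.1), which was taken as pairing from the data, as the labels give no animal, litter or day. Differently numbered libraries were not compared in this way. The block was fitted over all groups of batch 1, APP-TKI among them, so that it is not a pairing of DM and WT alone. It changed no call of a member in DM against WT, which does not settle whether a pairing matters.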

Additional observations from a re-analysis of the deposited data

How the results depend on the processing

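Over 54 log2 fold changes of members (9 genes in 6 comparisons), 946 of 1098 alternative values kept the direction and the side of the threshold, 88 changed sign, 14 gained a call and 50 lost one. TMM and median-of-ratios scaling kept the same 7 members called between the WT groups. The cause of the differences below was not tested, and the alternative without both highest libraries was chosen after seeing the data. With no filter on low counts, 1 member was called in DM against WT (*Folr1*), 1 in APP-TKI against WT and 1 in DM against APP-TKI (both *Ttr*), and 3 in the difference of differences (*Prlr*, *Clic6*, *Ttr*). The genes called in all then numbered 171, 81, 94, 16 (ApoE4 against WT) and 393 (difference of differences), the other choroid plexus genes 5, 1 and 3 in batch 1 and 36 between the WT groups, and *Sostdc1* was 0.0064 in ApoE4 against WT. With filterByExpr, 2 genes were called in APP-TKI against WT and 19 other choroid plexus genes between the WT groups. DESeq2 called 50, 25, 18, 48 and 26 genes in the first 5 comparisons, with 2 other choroid plexus genes in DM against WT. The robust likelihood ratio test called 136, 50, 53, 125 and 121, with 4 other choroid plexus genes in DM against WT and 1 in DM against APP-TKI. Under that test *Clic6* (0.37) and *Otx2* (0.40) changed sign in DM against WT, *Ttr* (-0.24), *Otx2* (0.72), *Slc4a5* (-0.21) and *Tmem72* (-0.41) in ApoE4 against WT, and *Folr1* (-0.53) in the difference of differences. Between the WT groups, 2 members were called by the robust quasi-likelihood test, and at an adjusted p under 0.05 there were 2, with 7 other choroid plexus genes. All 15 libraries in a single fit gave 1, 3 and 1 genes called in DM against WT, APP-TKI against WT and DM against APP-TKI, and the 2 compared groups alone gave 30 (1 of them another choroid plexus gene) in DM against WT and 1 in DM against APP-TKI.

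With a replicate block, 11, 9 and 1 genes were called in DM against WT, APP-TKI against WT and DM against APP-TKI. Between the WT groups, which the block compares at the fitted level of replicate 1, 1 member and 6 other choroid plexus genes were called. *Clic6* was 0.019 in DM against WT, *Otx2* 0.22 in ApoE4 against WT and *Folr1* -0.15 in the difference of differences, and the block changed no other call of a member. Apart from DM and WT, same-numbered libraries did not all deviate together, with r of 0.186, -0.320 and 0.229 for APP-TKI and WT, 0.225, -0.117 and 0.220 for DM and APP-TKI and -0.273, 0.058 and 0.066 for ApoE4 and WT.

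With single libraries left out, the genes called were 1 to 29 in DM against WT (other choroid plexus 0 to 1), 0 to 3 in APP-TKI against WT, 0 to 1 in DM against APP-TKI and 0 to 1 in ApoE4 against WT. Between the WT groups they were 1779 to 3121, with 0 to 8 members, 2 to 20 other choroid plexus genes and a member median of 1.69 to 4.26, and without both highest libraries 1650 genes, 1 member and 7 other choroid plexus genes were called. The member median was -0.21 to 0.86 in DM against WT, 0.064 to 1.33 in APP-TKI against WT, -0.54 to -0.083 in DM against APP-TKI, -1.33 to 2.38 in ApoE4 against WT and -2.16 to 1.60 in the difference of differences. In DM against WT the log2 fold change was -0.30 to 1.44 for *Ttr*, -0.21 to 0.0014 for *Kl*, -0.50 to 0.84 for *Clic6*, -0.18 to 0.069 for *Prlr*, -0.51 to 0.86 for *Otx2* and -0.53 to 1.33 for *Tmem72*. In APP-TKI against WT it was -0.0064 to 0.22 for *Kl*, -0.074 to 0.14 for *Prlr*, -0.072 to 0.15 for *Sostdc1* and -0.33 to 1.04 for *Otx2*. In DM against APP-TKI it was -1.09 to 0.079 for *Ttr*, -0.076 to 1.06 for *Folr1*, -0.22 to 0.030 for *Prlr* and -0.54 to 0.084 for *Otx2*. In ApoE4 against WT, where the lowest value always came without ApoE4 replicate 1 and the highest without WT batch 2 replicate 3, it was -3.62 to 3.67 for *Ttr*, -1.33 to 2.59 for *Folr1*, -0.87 to 1.02 for *Kl*, -0.85 to 2.38 for *Clic6*, -0.72 to 1.86 for *Prlr*, -1.40 to 1.28 for *Sostdc1*, -0.91 to 1.53 for *Otx2*, -3.39 to 3.22 for *Slc4a5* and -3.29 to 2.96 for *Tmem72*. In the difference of differences it was -4.19 to 3.10 for *Ttr*, -2.16 to 1.76 for *Folr1*, -1.24 to 0.65 for *Kl*, -2.87 to 0.35 for *Clic6*, -1.96 to 0.61 for *Prlr*, -1.08 to 1.60 for *Sostdc1*, -1.71 to 0.73 for *Otx2*, -4.23 to 2.38 for *Slc4a5* and -3.99 to 2.25 for *Tmem72*. Depth limits *Folr1*, *Slc4a5*, *Aqp1* and *Tmem72*, which had counts under 10 in several libraries of batch 1.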
